A study of Mus musculus with 4 samples.

Results

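Immediate early genes and heat shock genes are described here as a set of 36 named genes, 25 immediate early and 11 heat shock, in dendritic-cell-sorted preparations of adenovirus-injected mouse melanomas. The members are a list of gene symbols, matched exactly to the symbols in the files. All 36 were present among the 32285 genes of the deposited matrices, and each had at least 534 UMIs (unique molecular identifiers, 1 per captured transcript) in every library. No member was lost to a filter on low values.

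Immediate early genes are transcribed within minutes of a signal because their control needs no newly made protein. They encode transcription factors of the AP-1, EGR, NR4A and KLF families, together with phosphatases and RNA-decay proteins that switch the same signal off. Heat shock genes encode chaperones, which hold and refold other proteins. A few of them, above all the inducible HSP70 pair Hspa1a and Hspa1b, are driven by the factor HSF1 under stress, whereas Hspa8, the HSP90 genes and the mitochondrial chaperonin are present in unstressed cells. In myeloid cells both classes can be induced by activation and also by enzymatic tissue dissociation.

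There were 4 libraries, 1 for each virus: Ad-MEM40 (named ISF35 in the treatment field), Ad-mIFNB, Ad-COMBO (both viruses by its labels) and Ad-Null. B16-F10 melanoma cells, 500000 per mouse, were implanted under the skin of C57BL/6 mice, and on day 12 the virus went into the tumor. Sorted CD11c+ MHC-II+ cells of 3 tumors were pooled for every library. There is thus no spread between animals and no test between groups, and a virus cannot be told apart from its 1 library. Every tumor was digested with collagenase A at 1 mg/ml and DNase I at 37 °C for 20 min. All libraries share that step and the sort. No undigested tissue was analysed here, so the part of the digestion in the levels below was not tested.

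After filtering to barcodes with at least 500 genes and at most 10% mitochondrial UMIs, Ad-MEM40 kept 15656 cells, Ad-mIFNB 1810, Ad-COMBO 671 and Ad-Null 8745. At most 10000 cells were stated as loaded per library, fewer than the barcodes kept for Ad-MEM40. A cell below thus means a kept barcode, and not all of those in Ad-MEM40 can be single loaded cells. What the excess barcodes hold was not tested. Median UMIs per cell were 9483 in Ad-MEM40, 13615.5 in Ad-mIFNB, 11434 in Ad-COMBO and 15277 in Ad-Null, and median mitochondrial shares lay between 1.61% and 2.23%. Itgax, which encodes CD11c, was measured at 69.7 to 103 UMIs per 1000000 (CPM), and the MHC-II gene H2-Ab1 at 5362 to 6669.5 CPM. Ifnb1, which encodes interferon beta, was read at 1.01 CPM in Ad-MEM40, 3.15 CPM in Ad-mIFNB and 2.87 CPM in Ad-COMBO, against 0.628 CPM in Ad-Null. Cd40lg, which encodes CD40 ligand, had 91 UMIs in Ad-MEM40 (0.50 CPM, interval 0.403 to 0.614), 0 in Ad-mIFNB (up to 0.129 CPM) and 0 in Ad-COMBO (up to 0.378 CPM), against 1 UMI in Ad-Null. At most 41 filtered barcodes were shared by any pair of libraries (Ad-MEM40 and Ad-Null). Intervals given below are exact 95% intervals that cover counting error only. Ratios are log2 of (CPM + 5) in the first library over that in the second, and a member is called higher or lower when it passes 1.5-fold. The 3 comparisons with Ad-Null share that 1 library.

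In the whole libraries the immediate early members stood highest in Ad-COMBO. Summed over the 25 genes, Ad-MEM40 held 15402 CPM (15384 to 15420.3) and Ad-mIFNB 16402 CPM (16355 to 16449). Ad-COMBO held 19134 CPM (19047 to 19221), against 13944 CPM (13925 to 13962) in Ad-Null. Neither these 4 intervals nor those of the heat shock sums below overlap, but they cover counting error only, within 1 library each. The 11 heat shock genes summed to 8887 CPM in Ad-MEM40, 7841 in Ad-mIFNB, 8748 in Ad-COMBO and 7731 in Ad-Null. Ad-COMBO held the highest level of 20 of the 25 immediate early members and of 7 of the 11 heat shock members, while Ad-Null held the lowest level of 13 and 7 of them. The same counts over all genes were not made, so whether these are particular to the members was not tested.

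**Figure D1:**
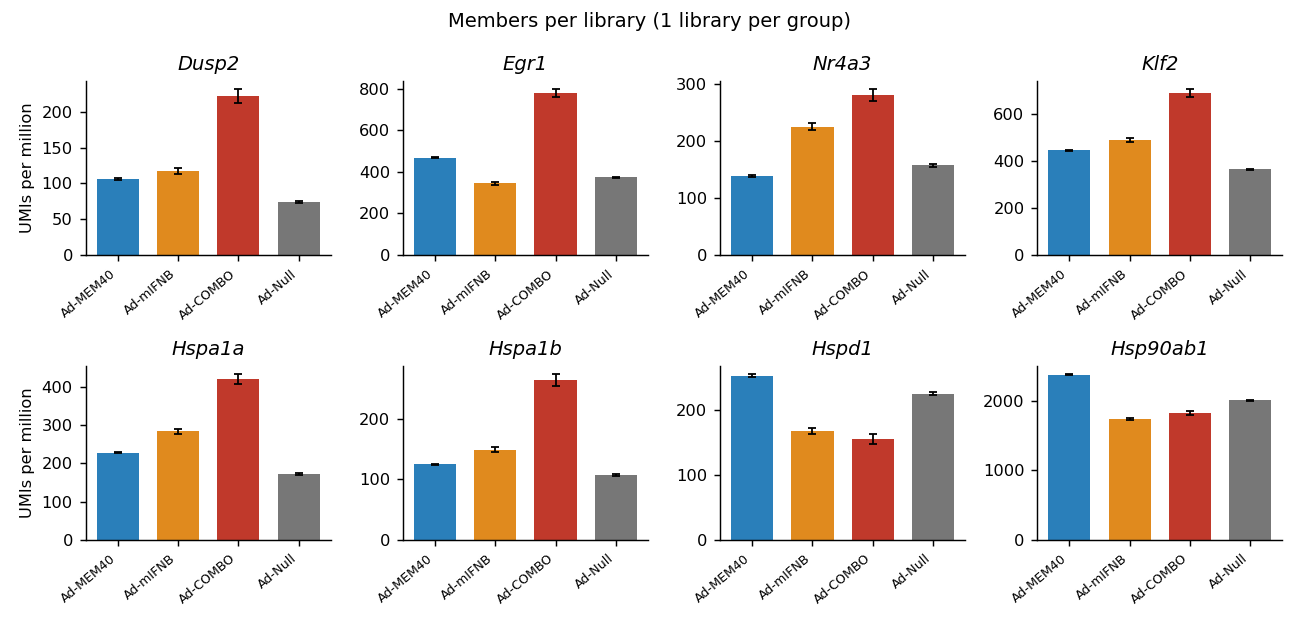
Level of 8 members in each library, in CPM on a linear axis that starts at 0, with exact 95% counting intervals and 1 library per group. Dusp2, Egr1, Nr4a3, Klf2, Hspa1a and Hspa1b are highest in Ad-COMBO, while Hspd1 and Hsp90ab1 are highest in Ad-MEM40.

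Against Ad-Null, Ad-COMBO had 10 immediate early members higher by 1.5-fold and 0 lower, where 5.98% of all 15477 genes measured (at least 20 UMIs over both libraries) were called higher and 3.22% lower. The median log2 ratio of the 25 members was 0.46, against -0.01 over all genes measured. Shares and medians over all genes, here and below, include genes of far lower CPM than any member. The added 5 CPM holds the ratios of such genes near 0, so these shares and medians are not matched to the members in level. Of the heat shock members 2 were higher and 0 lower, with a median of 0.25.

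All 4 feedback genes, which limit the signal that induces them, were among the 10. Dusp2, a nuclear phosphatase of MAP kinases found mainly in leukocytes, was read at 106, 117 and 222 CPM in the Ad-MEM40, Ad-mIFNB and Ad-COMBO libraries, against 73.5 CPM in Ad-Null. Its Ad-COMBO to Ad-Null log2 ratio of 1.53 (1.47 to 1.60) was the highest of the 36 members, and Ad-Null was the lowest library. Dusp5, a nuclear ERK phosphatase, had 149, 218 and 289 CPM in the Ad-MEM40, Ad-mIFNB and Ad-COMBO libraries and 145 CPM in Ad-Null, so that Ad-MEM40 and Ad-Null were close together. Dusp1, which acts on p38 and JNK as well, had 964, 794 and 1046 CPM in the Ad-MEM40, Ad-mIFNB and Ad-COMBO libraries, against 656 CPM in Ad-Null. Zfp36, encoding tristetraprolin, which speeds the decay of cytokine transcripts, had 681, 877 and 1021 CPM in the Ad-MEM40, Ad-mIFNB and Ad-COMBO libraries, against 676 CPM in Ad-Null. Its log2 ratio of 0.59 lay just past the 1.5-fold line. Zfp36 was past that line in 5 of the 10 other settings tried, with a lowest ratio of 0.29, and Dusp1 in 8 of 10, with a lowest of 0.41.

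The EGR zinc-finger factors did not move as a family. Egr1 had 469, 344 and 781 CPM in the Ad-MEM40, Ad-mIFNB and Ad-COMBO libraries, against 374 CPM in Ad-Null, with Ad-COMBO at a log2 ratio of 1.05 (1.02 to 1.09) and Ad-mIFNB the lowest library. Egr3 had 26.8, 28.9 and 56.4 CPM in the Ad-MEM40, Ad-mIFNB and Ad-COMBO libraries, against 29.7 CPM in Ad-Null, so that 3 libraries lay within 3 CPM of each other and Ad-COMBO stood apart at 0.82 (0.70 to 0.94). Egr2 ran from 48.4 CPM in Ad-MEM40 to 64.3 CPM in Ad-Null and passed 1.5-fold in no comparison.

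Among the AP-1 genes, whose products pair to bind the AP-1 site, Fosb was the 1 member called in Ad-COMBO. Fosb had 852, 1051 and 1264 CPM in the Ad-MEM40, Ad-mIFNB and Ad-COMBO libraries, against 789.8 CPM in Ad-Null, a log2 ratio of 0.68 for Ad-COMBO. Fos, the founding member of the family, was far flatter, at 2169.9, 2093 and 2215 CPM in the Ad-MEM40, Ad-mIFNB and Ad-COMBO libraries, against 1805 CPM in Ad-Null. Jun, Junb, Jund and Atf3 had Ad-COMBO ratios of 0.44, 0.35, 0.38 and 0.11. Fosl2 went the other way, at 80.1, 71.3 and 54.8 CPM in the Ad-MEM40, Ad-mIFNB and Ad-COMBO libraries, against 83.7 CPM in Ad-Null, and its ratio of -0.57 lay just inside 1.5-fold.

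Of the orphan nuclear receptors, Nr4a3 had 138, 225 and 279 CPM in the Ad-MEM40, Ad-mIFNB and Ad-COMBO libraries, against 157 CPM in Ad-Null, and was called in Ad-COMBO at 0.82. Nr4a1, often read as a sign of recent antigen-receptor or inflammatory signalling, had 198, 246 and 282 CPM in the Ad-MEM40, Ad-mIFNB and Ad-COMBO libraries, against 256 CPM in Ad-Null, and Nr4a2 had 165, 132 and 153 CPM in the Ad-MEM40, Ad-mIFNB and Ad-COMBO libraries, against 175 CPM in Ad-Null. Neither was called in any comparison with Ad-Null. Klf2, a factor of quiescent leukocytes and endothelium, had 446, 489 and 690.0 CPM in the Ad-MEM40, Ad-mIFNB and Ad-COMBO libraries, against 365 CPM in Ad-Null (0.91 in Ad-COMBO), and Klf6 and Klf4 had Ad-COMBO ratios of 0.53 and -0.03. Ier5 was called at 0.67, with 389, 618 and 654 CPM in the Ad-MEM40, Ad-mIFNB and Ad-COMBO libraries, against 410.5 CPM in Ad-Null. Btg1, Ier3, Btg2 and Ier2 had ratios of 0.57, 0.46, 0.43 and 0.13.

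**Figure D2:**
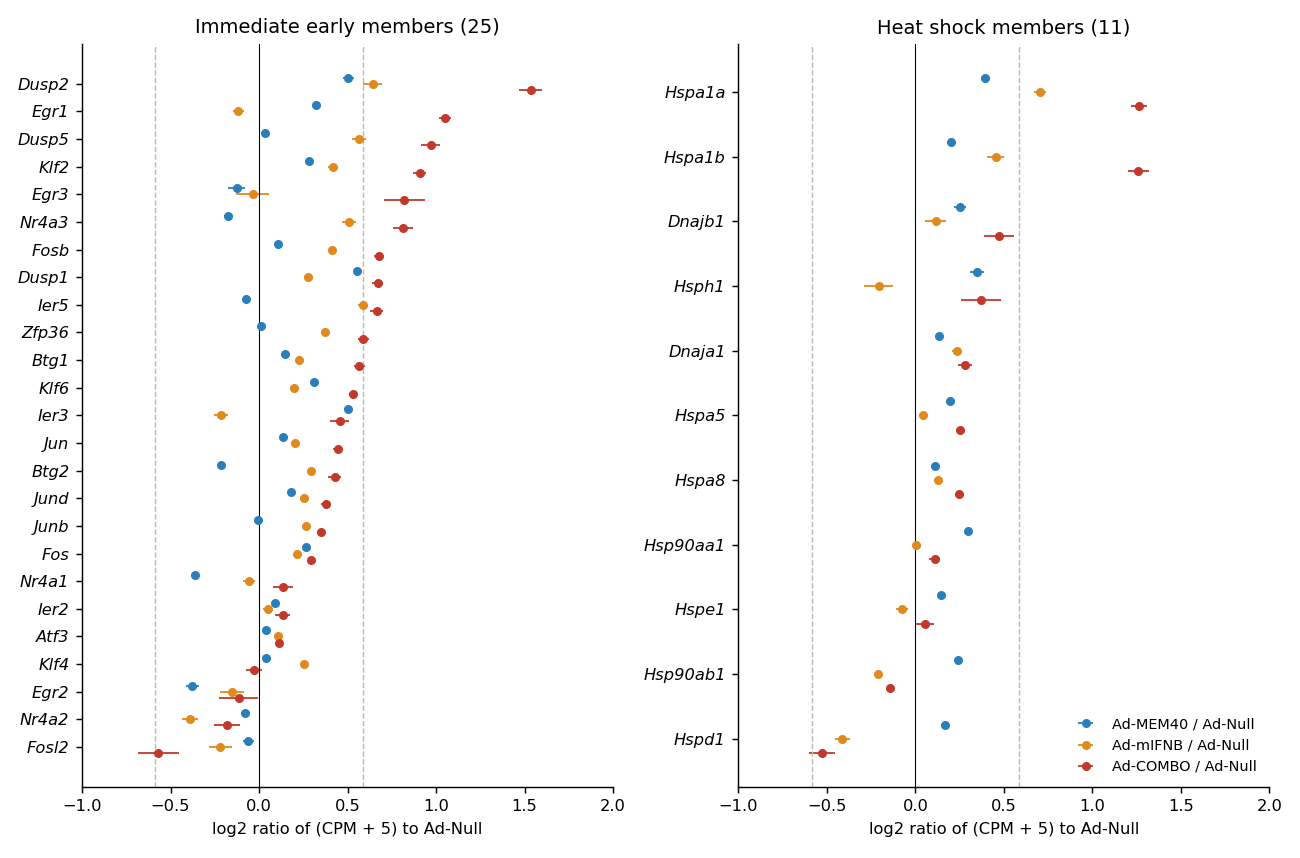
Log2 ratio of each member in Ad-MEM40, Ad-mIFNB and Ad-COMBO to Ad-Null, with exact 95% counting intervals and dashed lines at 1.5-fold. The Ad-COMBO points of Dusp2, Egr1, Hspa1a and Hspa1b lie beyond 1, and no Ad-MEM40 point lies past a dashed line.

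Ad-MEM40 and Ad-mIFNB had few members past 1.5-fold of Ad-Null. In Ad-MEM40, 0 of the 25 immediate early and 0 of the 11 heat shock members passed 1.5-fold, beside 0.776% of all genes called higher and 0.34% lower. The highest were Dusp1 at 0.55, Dusp2 at 0.51 and Ier3 at 0.50, and the lowest were Egr2 at -0.38 and Nr4a1 at -0.36. All 11 heat shock members lay above 0 there, at 0.11 to 0.39, with a median of 0.20, against 0.02 over all genes. Ad-mIFNB had 1 member higher in each set, Dusp2 at 0.64 and Hspa1a at 0.70, beside 2.65% of all genes called higher and 1.41% lower. Ier5 at 0.58 and Dusp5 at 0.57 lay just under the 1.5-fold line. The immediate early median was 0.23 in Ad-mIFNB, and the heat shock median was 0.04.

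Ad-COMBO was also set against each single virus. Against Ad-MEM40, 8 immediate early members were higher and 0 lower (5.45% of all genes were called higher and 4.82% lower), and they included Dusp2 at 1.03, Nr4a3 at 0.99, Egr3 at 0.95 and Dusp5 at 0.93. Against Ad-mIFNB, 4 were higher and 0 lower (2.66% of all genes higher and 0.631% lower): Egr1 at 1.17, Dusp2 at 0.89, Egr3 at 0.86 and Ier3 at 0.67. Dusp2, Egr1 and Egr3 were thus past 1.5-fold in Ad-COMBO against each of the other 3 libraries. Of the heat shock members, Hspa1b and Hspa1a were higher than in Ad-MEM40 at 1.06 and 0.87 and Hspd1 was lower at -0.69, while Hspa1b alone was higher than in Ad-mIFNB, at 0.81.

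The inducible HSP70 genes stood apart from the other chaperones. Hspa1a had 229, 285 and 422 CPM in the Ad-MEM40, Ad-mIFNB and Ad-COMBO libraries, against 173 CPM in Ad-Null. Hspa1b had 125, 149 and 265 CPM in the Ad-MEM40, Ad-mIFNB and Ad-COMBO libraries, against 108 CPM in Ad-Null. Both genes ranked the libraries alike, with Ad-COMBO at log2 ratios of 1.26 and 1.26 to Ad-Null. The other 9 heat shock members had Ad-COMBO ratios between -0.53 and 0.47. Hsph1 and Dnajb1, an HSP110 and an HSP40 that work with HSP70 and respond to HSF1 as well, had Ad-COMBO ratios of 0.37 and 0.47. Hsph1 had 61.9, 40.5 and 63.0 CPM in the Ad-MEM40, Ad-mIFNB and Ad-COMBO libraries, against 47.6 CPM in Ad-Null, and Dnajb1 had 94.3, 85.4 and 111 CPM in the Ad-MEM40, Ad-mIFNB and Ad-COMBO libraries, against 78.4 CPM in Ad-Null. Dnaja1, another HSP40, had a ratio of 0.28 in Ad-COMBO.

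The constitutive chaperones differed less and not in 1 direction. Hspa8, the housekeeping HSP70, had 2098, 2123 and 2303 CPM in the Ad-MEM40, Ad-mIFNB and Ad-COMBO libraries, against 1942 CPM in Ad-Null. Hspa5, the HSP70 of the endoplasmic reticulum (BiP), had 1694, 1521 and 1759.9 CPM in the Ad-MEM40, Ad-mIFNB and Ad-COMBO libraries, against 1478 CPM in Ad-Null. Hsp90ab1 had 2385, 1738 and 1827 CPM in the Ad-MEM40, Ad-mIFNB and Ad-COMBO libraries, against 2016 CPM in Ad-Null, so that Ad-MEM40 was highest and both interferon-beta libraries lay below Ad-Null. Hsp90aa1 had 1123, 916 and 985 CPM in the Ad-MEM40, Ad-mIFNB and Ad-COMBO libraries, against 914 CPM in Ad-Null. Hspd1, the large subunit of the mitochondrial chaperonin, had 253, 168 and 155 CPM in the Ad-MEM40, Ad-mIFNB and Ad-COMBO libraries, against 226 CPM in Ad-Null, a ratio of -0.53 in Ad-COMBO and of -0.41 in Ad-mIFNB. Its partner Hspe1 had 327, 281 and 307 CPM in the Ad-MEM40, Ad-mIFNB and Ad-COMBO libraries, against 296 CPM in Ad-Null.

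Hspa1a and Hspa1b are neighbouring single-exon genes on the minus strand of chromosome 17 (GRCm38, GENCODE M21 positions chr17:34969190-34972156 and chr17:34956436-34959238). Their annotated transcripts were 86.3% identical over their whole length and 56.7% identical over the last 300 bases, the end that 3′ libraries read, so counts may be shared between them to an extent not given here. Their promoters are shown because the 2 genes had the same ratio. In RefSeq's promoter table (GRCm38.p6) the 250 bases before the start, chr17:34972157-34972406 and chr17:34959239-34959488, differ at 3 positions. Capitals mark the heat shock element core GAANNTTC, whose first base lies 104 bases before the start in both, and the CCAAT box, here on the opposite strand, 67 bases before it.
Hspa1a: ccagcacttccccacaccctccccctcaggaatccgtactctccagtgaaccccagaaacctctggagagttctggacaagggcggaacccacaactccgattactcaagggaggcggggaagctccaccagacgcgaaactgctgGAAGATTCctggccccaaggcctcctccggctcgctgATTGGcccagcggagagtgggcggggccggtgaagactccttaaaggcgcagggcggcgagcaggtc
Hspa1b: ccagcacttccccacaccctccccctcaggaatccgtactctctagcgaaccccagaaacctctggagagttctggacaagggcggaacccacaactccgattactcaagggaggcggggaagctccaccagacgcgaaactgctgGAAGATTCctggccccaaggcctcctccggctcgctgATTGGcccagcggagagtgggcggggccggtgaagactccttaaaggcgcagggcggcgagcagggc

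Promoter windows of 300 bases, 250 before to 50 after each RefSeq start, were found for 30 of the 36 members, 22 immediate early and 8 heat shock (the other 6 are Egr1, Egr3, Ier2, Hspa8, Hsp90aa1 and Hsp90ab1). Both strands were searched. GAANNTTC was found for 6 of the 8 heat shock genes and for 2 of the 22 immediate early genes, where 9.04% of all 27025 genes hold it. The reverse arrangement TTCNNGAA, which can overlap it, was found for 3 and 1 of them, beside 9.60% of all genes. The CArG box, the site of serum response factor, was found for 0 of the 8 heat shock and 3 of the 22 immediate early genes (Egr2, Dusp5 and Zfp36), beside 1.81% of all genes. TGACGTCA, the full CREB site, was found for 0 and 2 of them (Dusp1 and Btg2), beside 2.03%. TGANTCA, an AP-1 site, was found for 1 heat shock gene (Hspa5) and 0 immediate early genes, beside 8.97%. The CCAAT box was found for 7 of the 8 heat shock and 9 of the 22 immediate early genes, beside 41.1% of all genes. A match is a description of the letters in these windows only. Of the genes called in Ad-COMBO with a window, Hspa1a, Hspa1b, Dusp1, Dusp5 and Zfp36 hold 1 of the first 4 motifs and Dusp2, Fosb, Ier5, Klf2 and Nr4a3 hold none.

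Matches are printed on each gene's own strand with up to 10 bases on either side and the motif in capitals, as examples of heat shock cores in chaperone promoters and of CArG and CREB sites in immediate early promoters. Hspe1 and Hspd1 are transcribed away from each other from a shared region, and their entries are the same bases (chr1:55088054-55088081) read from opposite strands. The others are Dnaja1 at chr4:40722334-40722361 (+), Dusp5 at chr19:53529053-53529082 (+), Zfp36 at chr7:28379267-28379296 (-), Dusp1 at chr17:26508598-26508625 (-) and Btg2 at chr1:134079304-134079331 (-).
Hspe1: gtccgttctaGAACCTTCcggaaggccc
Hspd1: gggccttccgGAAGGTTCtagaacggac
Dnaja1: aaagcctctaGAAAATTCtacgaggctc
Dusp5: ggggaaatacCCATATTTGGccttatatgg
Zfp36: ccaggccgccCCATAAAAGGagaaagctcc
Dusp1: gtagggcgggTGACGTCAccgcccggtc
Btg2: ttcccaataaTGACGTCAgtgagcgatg
The immediate early genes were short in the annotation, with a median gene length of 5324 bases and 3 exons (5 of 25 had a single exon), and the heat shock genes had 5578 bases and 9 exons. All 22028 protein-coding genes had a median length of 17318 bases.

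The libraries differ in which cells they hold, so both sets were also counted within classes gated on marker lists: 62.9% of the 26882 filtered cells were gated, and 25.4% of all filtered cells lay within 0.1 of a cut in score. The names are rebuilt here and are not the authors' annotation. Classes are named for the markers they score on, such as Xcr1 and Clec9a for cDC1-like, Ccr7 and Fscn1 for mature DC-like and C1qa and Mrc1 for macrophage-like cells. Ad-COMBO had 142 cDC1-like, 147 mature DC-like and 76 macrophage-like cells and under 50 of every other named class. Its mature DC marker list summed to 1176 CPM and its cDC1 list to 1262 CPM, against 400.3 and 896 CPM in Ad-Null. Its cDC2 and monocyte lists summed to 426 and 178 CPM, against 889 and 617 CPM, and its macrophage list to 2902 against 2886 CPM. The part of the cell mixture in the whole-library sums was not tested.

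In cDC1-like cells the immediate early set summed to 17014, 17077 and 23227 CPM in the Ad-MEM40, Ad-mIFNB and Ad-COMBO libraries, against 14122 CPM in Ad-Null. Ad-COMBO had 14 members higher and 0 lower than Ad-Null, with a median log2 ratio of 0.71, beside 6.65% of genes called higher and 6.54% lower in this class. They included Dusp2 (189.5 against 53.4 CPM, 1.74), Dusp5 (326 against 116 CPM, 1.45), Dusp1 (1105 against 468 CPM, 1.23) and Zfp36 (1161 against 515 CPM, 1.16). Fosb, Ier3, Egr1, Nr4a3 and Klf2 followed at 1.12, 1.12, 1.08, 1.05 and 1.00. Heat shock members called were 4 higher and 0 lower: Hspa1a at 1.47, Hspa1b at 1.39, Dnajb1 at 0.79 and Hsph1 at 0.62. Without the deepest Ad-COMBO cell, 1.89% of the UMIs of the class, Hsph1 had 0.55 and 3 were called. A UMI of Hspa1a was found in 67.6% of Ad-COMBO and 59.2% of Ad-Null cells of the class, and of Hspa1b in 56.3% and 46.7%. With each cell given equal weight, 12 immediate early members were called, and Egr3 at 0.48 and Btg1 at 0.51 fell short. Ad-MEM40 had 2 immediate early members higher here, Dusp1 and Dusp2 (0.497% of genes higher and 0.345% lower), and Ad-mIFNB had Dusp5 and Dusp2 higher and Ier3 lower (3.25% of genes higher and 1.98% lower). Against Ad-MEM40, Ad-COMBO had 12 immediate early members higher in this class (5.64% of genes higher and 6.47% lower), and against Ad-mIFNB it had 9 (3.41% higher and 2.94% lower), with Ier3 at 1.73 in front.

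Mature DC-like cells, which have taken up the Ccr7 migration programme, showed a narrower group of immediate early members. Ad-COMBO had 8 immediate early members higher and 1 lower than Ad-Null, beside 11% of genes called higher and 13% lower. Egr1 had 418, 119 and 792 CPM in the Ad-MEM40, Ad-mIFNB and Ad-COMBO libraries, against 191 CPM in Ad-Null, so that Ad-mIFNB was lowest and Ad-COMBO highest, at a ratio of 2.02 (1.92 to 2.12) to Ad-Null. Dusp2 had 237, 228 and 449 CPM in the Ad-MEM40, Ad-mIFNB and Ad-COMBO libraries, against 127 CPM in Ad-Null. Ier3, an early gene of NF-kB and MAP kinase signals, had 273, 159.9 and 414 CPM in the Ad-MEM40, Ad-mIFNB and Ad-COMBO libraries, against 180.0 CPM in Ad-Null. Egr2 was the member called lower, at 17.3 CPM in Ad-COMBO against 36.1 CPM. Fos and Klf2 both had Ad-COMBO ratios of -0.08 and were not called. The deepest Ad-COMBO cell holds 5.81% of the UMIs of the class, and without it 8 were higher and 1 lower. With equal cells 9 were higher and 1 lower, Jun (0.65) and Ier2 (0.60) being called and Dusp5 falling to 0.53. Ad-MEM40 had 4 higher here, Egr1 at 1.11, Dusp2 at 0.88, Dusp1 at 0.60 and Ier3 at 0.59, beside 1.56% of genes higher and 0.64% lower. Ad-mIFNB had Dusp2 higher at 0.83 and the 3 EGR genes lower, Egr2 at -0.90, Egr1 at -0.66 and Egr3 at -0.63, beside 5.15% of genes higher and 4.49% lower. Of the heat shock members, Ad-COMBO had 2 higher and 0 lower than Ad-Null, Hspa1a at 1.29 and Hspa1b at 1.07. With equal cells 3 were higher, Hspa1a at 2.11, Hspa1b at 1.90 and Hsp90aa1 at 0.62. A UMI of Hspa1a was found in 58.5% of Ad-COMBO and 50.3% of Ad-Null cells of the class, and of Hspa1b in 45.6% and 37.3%.

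In macrophage-like cells more immediate early members were lower than higher in Ad-COMBO. It had 1 immediate early member higher, Egr1 at 715 against 316 CPM in Ad-Null (1.17), and 7 lower, beside 6.6% of genes called higher and 6.81% lower. The members called lower were Nr4a2 (27.7 against 90.0 CPM, -1.54), Nr4a3 (30.3 against 76.9 CPM, -1.22), Nr4a1 (62.6 against 138 CPM, -1.08), Dusp5 (36.2 against 80.0 CPM, -1.04), Ier2 (130.4 against 214 CPM, -0.69), Fosl2 (50.7 against 80.8 CPM, -0.62) and Dusp2 (43.5 against 69.6 CPM, -0.62). All 3 NR4A genes were thus lower. In cDC1-like cells Nr4a3 was higher and Nr4a1 and Nr4a2 had ratios of 0.55 and 0.08. In mature DC-like cells Nr4a1, Nr4a2 and Nr4a3 had -0.41, -0.08 and 0.50, and none of the 3 was called. Fosl2 lay below 0 in those classes as well, at -0.28 in cDC1-like and -0.37 in mature DC-like cells. The differences between classes were not tested. Hspa1a and Hspa1b were higher in this class as well, at 309 and 202 CPM in Ad-COMBO against 167 and 104 CPM in Ad-Null. The shares of cells with a UMI were close or lower, unlike in the other classes. They were 59.2% in Ad-COMBO and 57.9% in Ad-Null for Hspa1a, and 38.2% and 41.1% for Hspa1b, not corrected for depth. Ad-MEM40 had Egr1 higher at 0.69 (0.402% of genes higher and 0.327% lower), and Ad-mIFNB had 0 immediate early members called and Hspa1a higher at 0.83 (3.4% higher and 2.64% lower). The Ad-COMBO values rest on 76 Ad-COMBO cells, of which the deepest holds 5.40% of the UMIs. With each cell given equal weight, 7 members were again lower and 1 higher, and Hspa1a fell short of 1.5-fold at 0.48. Without the deepest cell 5 were lower, and Fosl2 and Dusp2 moved to -0.58 and -0.55.

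**Figure D3:**
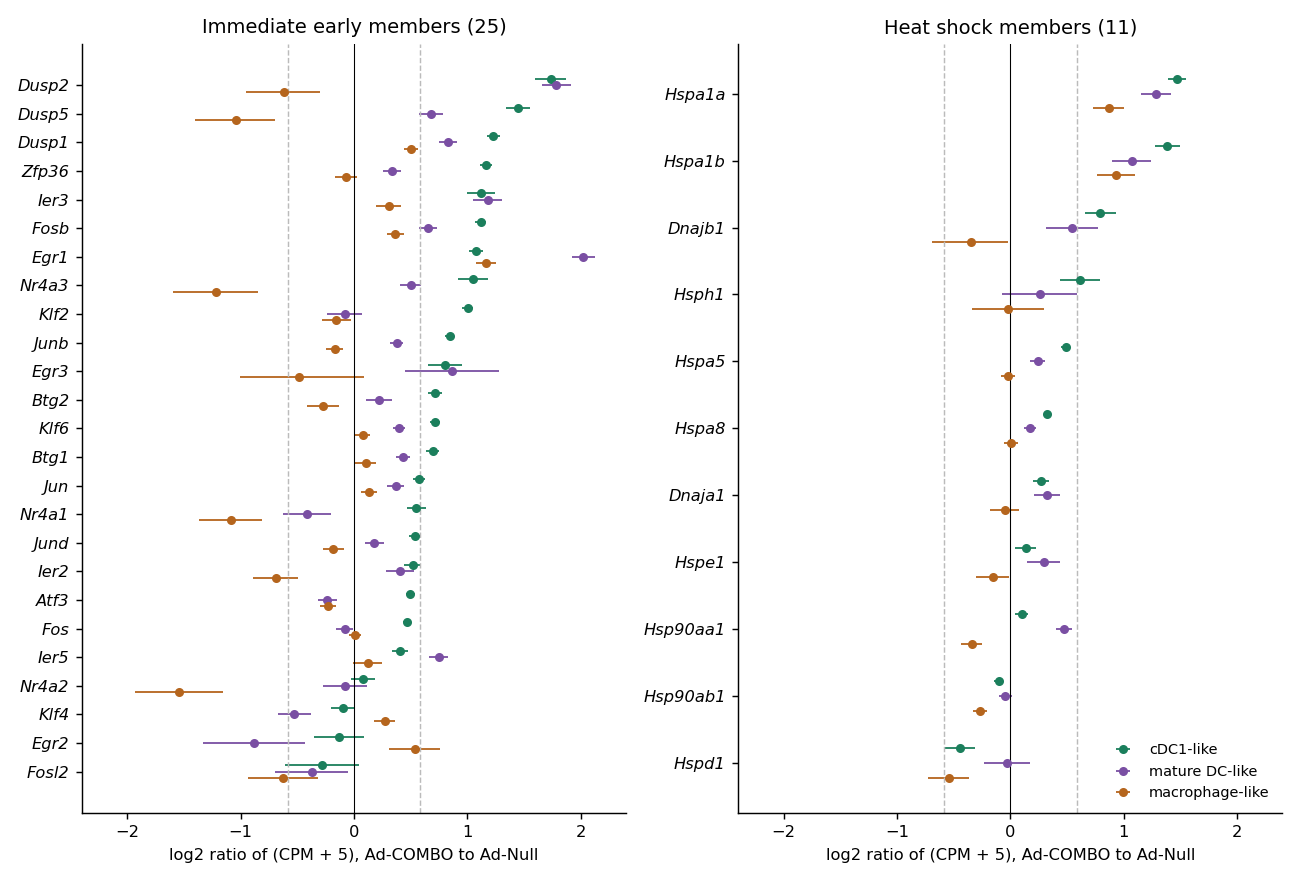
Log2 ratio of Ad-COMBO to Ad-Null for each member within cDC1-like, mature DC-like and macrophage-like cells, with exact 95% counting intervals and dashed lines at 1.5-fold. Dusp2, Dusp5 and Nr4a3 lie to the right in cDC1-like cells and to the left in macrophage-like cells, whereas Egr1, Hspa1a and Hspa1b lie to the right in all 3 classes.

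In 29 of 31 classes and libraries with at least 50 cells, the immediate early sum was above the heat shock sum (ungated cells included). The log2 balance was 0.58 to 1.62 there. The sums hold 25 and 11 genes, so list length enters their order, which is not a level per gene. The exceptions were the melanoma-like cells of Ad-MEM40 and Ad-Null, 432 and 141 cells of the sorted preparations. They held 6258 and 5689 CPM of immediate early and 13196 and 11684 CPM of heat shock members, a log2 balance of -1.08 and -1.04. Thinned to 1000 UMIs per cell, where each cell counts alike, the gap was smaller, with means of 9.69 immediate early and 11.3 heat shock UMIs in Ad-MEM40 and of 8.37 and 10.6 in Ad-Null. The immediate early UMIs of these cells fell with depth (Spearman correlation -0.56 in Ad-MEM40 and -0.46 in Ad-Null). Hsp90aa1 stood at 3119.8 CPM in melanoma-like cells of Ad-MEM40 and 2523 CPM in those of Ad-Null, against 609.8 to 1213 CPM in the 20 other marker-named DC, macrophage and monocyte sums. Hspd1 stood at 889.9 and 836 CPM. Hspa1a in contrast was at 29.6 and 26.8 CPM, the lowest of the DC, macrophage, monocyte and melanoma-like classes. Melanoma marker sums of the whole libraries were 1179, 477 and 273 CPM in the Ad-MEM40, Ad-mIFNB and Ad-COMBO libraries, against 726 CPM in Ad-Null, and Hspd1 had the same order of libraries. Their part in the Hspd1 level was not tested. Within cDC1-like cells Hspd1 was 177 and 171 CPM in Ad-mIFNB and Ad-COMBO, against 234 CPM in Ad-Null. In mature DC-like cells it was level, at 126 and 138 CPM, against 141 CPM in Ad-Null. In macrophage-like cells its Ad-COMBO to Ad-Null ratio was -0.54.

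**Figure D4:**
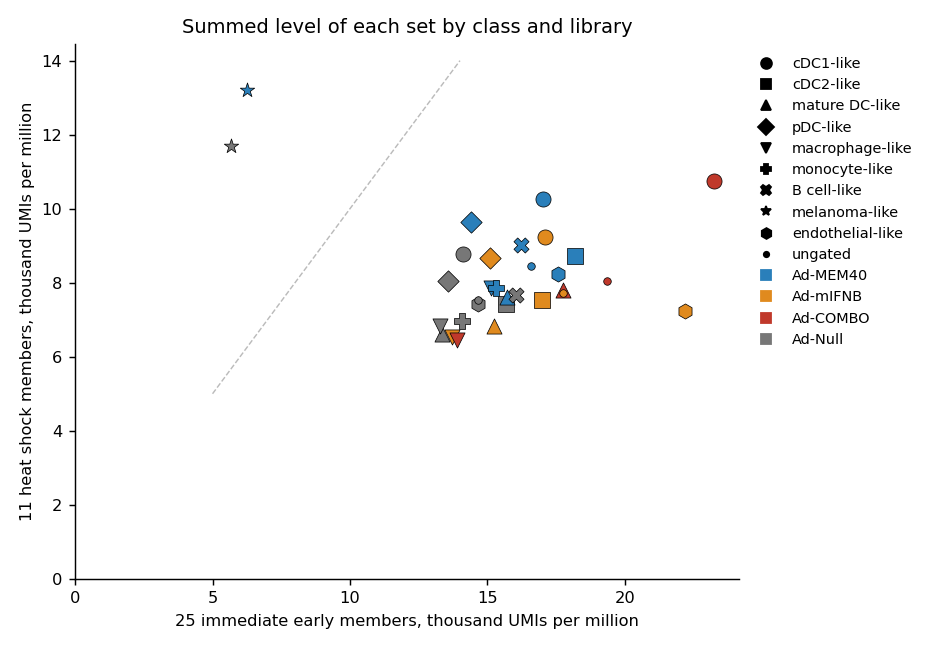
Summed level of the 25 immediate early members (x axis) and the 11 heat shock members (y axis) in each class and library with at least 50 cells, in units of 1000 CPM. The dashed line marks equal sums. Only the melanoma-like cells of Ad-MEM40 and Ad-Null lie above it, and cDC1-like cells of Ad-COMBO lie farthest to the right at 23227 CPM.

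Several members kept a class pattern in every library that could be read. The 7 marker-named classes compared leave out B cell-like and endothelial-like cells. Fos, Klf2 and Egr3 were highest in cDC1-like cells, with Klf2 at 899, 1068 and 1436 CPM in the Ad-MEM40, Ad-mIFNB and Ad-COMBO libraries, against 714 CPM in Ad-Null. In macrophage-like cells Klf2 lay between 339.8 and 463 CPM in the 4 libraries. Nr4a3 was highest in mature DC-like cells, at 452, 729 and 744 CPM in the Ad-MEM40, Ad-mIFNB and Ad-COMBO libraries, against 525 CPM in Ad-Null, and so was Dusp5, at 331, 472 and 549 CPM in the Ad-MEM40, Ad-mIFNB and Ad-COMBO libraries, against 340.2 CPM in Ad-Null. Jund, an AP-1 partner with steady expression, was highest in pDC-like cells, at 2282 and 2405 CPM in Ad-MEM40 and Ad-mIFNB, against 1971 CPM in Ad-Null. Their Hspa1a was at 182 and 81.6 CPM in Ad-MEM40 and Ad-mIFNB, against 76.0 CPM in Ad-Null. Dusp1 was high in macrophage-like cells at 1319, 1229 and 1418 CPM in the Ad-MEM40, Ad-mIFNB and Ad-COMBO libraries, against 1001 CPM in Ad-Null. For 24 of the 25 immediate early and 10 of the 11 heat shock members, Ad-MEM40 and Ad-Null had the same highest class among 7 marker-named classes. This count was not made over all genes.

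Likeness among members was described over 22 sums of marker-named classes and libraries, which share libraries and depth. They include the 2 melanoma-like sums and leave out B cell-like and endothelial-like cells. The median Pearson correlation of log2 levels was 0.42 within the immediate early set, 0.41 within the heat shock set and -0.14 between them. The closest pairs were Junb with Zfp36 at 0.97, Nr4a2 with Ier2 at 0.93, Hspe1 with Hspd1 at 0.93 and Hsp90aa1 with Hsp90ab1 at 0.91. Hspa1a was most like Hspa1b at 0.92 and next most like Fosb at 0.86. Its median correlation was 0.62 with the immediate early members and -0.28 with the other heat shock members. Hspa1b had 0.54 and -0.26. These values lean on the melanoma-like sums. Over the other 20 sums, a choice made after seeing the data, the medians were 0.16 within the immediate early set, 0.39 within the heat shock set and 0.15 between them. Hspa1a then had 0.29 with the immediate early and 0.07 with the other heat shock members, and Hspa1b 0.34 and -0.10.

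In single cells, each thinned to 1000 UMIs to remove depth (6 to 177 shallower cells per library were left out), the median cell had 16, 16 and 18 immediate early UMIs in the Ad-MEM40, Ad-mIFNB and Ad-COMBO libraries, against 14 in Ad-Null. Medians of heat shock UMIs were 8 in Ad-MEM40, 7 in Ad-mIFNB and 8 in Ad-COMBO, against 7 in Ad-Null. Across cells, the Spearman correlation of the 2 sums was 0.07 in Ad-MEM40, 0.26 in Ad-mIFNB and 0.27 in Ad-COMBO, against 0.07 in Ad-Null, and in melanoma-like cells -0.26 in Ad-MEM40 and -0.25 in Ad-Null. Single gene pairs were read by the Pearson correlation of the thinned counts. Hspa1a and Hspa1b were correlated across cells at 0.43 in Ad-MEM40, 0.48 in Ad-mIFNB and 0.74 in Ad-COMBO, against 0.54 in Ad-Null. For Fos and Jun the values were 0.13 to 0.15 in all 4 libraries. In Ad-COMBO Hspa1a had 0.32 with Jun, 0.15 with Dnajb1 and 0.12 with Hsph1, against 0.14, 0.16 and 0.22 in Ad-Null. These are descriptions across cells, which share a library.

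**Figure D5:**
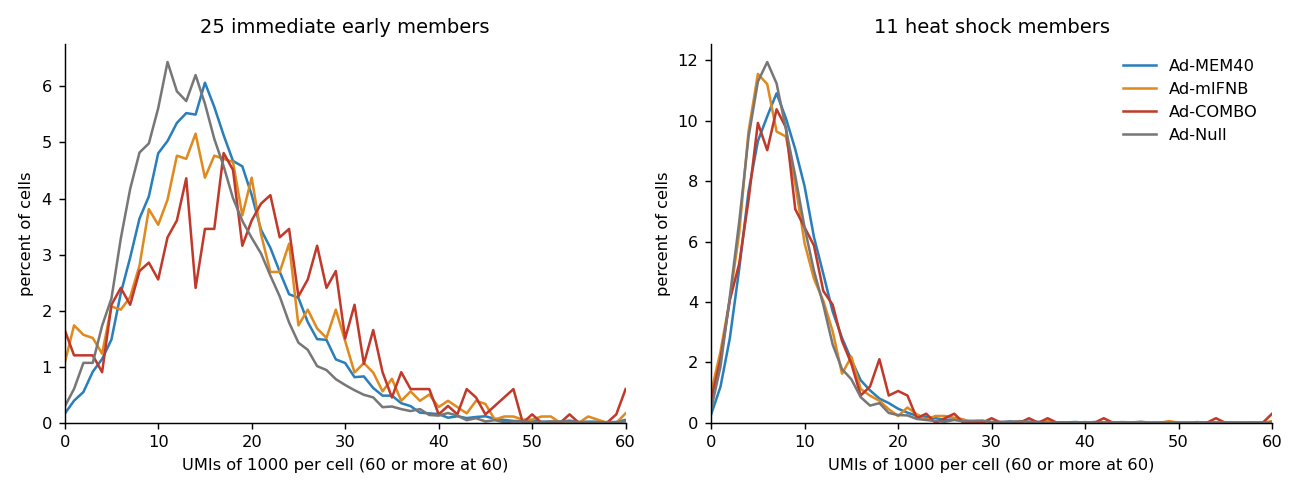
Percent of cells (y axis) by number of immediate early UMIs (left) and heat shock UMIs (right) out of 1000 per cell (x axis) in each library. The 4 curves overlap over most of their range, with medians of 14 to 18 on the left and 7 to 8 on the right, and Ad-mIFNB and Ad-COMBO have more cells near 0 on the left.

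A minority of cells had a low share of immediate early UMIs. At most 3 such UMIs of 1000, a limit set after the distribution was seen, were found in 2.02% of cells in Ad-MEM40. The share was 5.89% (interval 4.84 to 7.08) for Ad-mIFNB and 5.26% (interval 3.69 to 7.24) for Ad-COMBO, against 3.03% (interval 2.68 to 3.42) for Ad-Null. In the 2 libraries with the higher shares these cells were shallow, with median UMIs of 6212 in Ad-mIFNB and 4238 in Ad-COMBO before thinning. Their nuclear RNA Malat1 averaged 7.32 and 9.51 UMIs of 1000, against 37.9 and 64.2 in the other cells of the same libraries. Heat shock UMIs averaged 4.93 and 5.66, against 7.87 and 8.90. In Ad-MEM40 and Ad-Null the cells under the limit averaged 15.2 and 16.2 Malat1 UMIs, against 28.4 and 29.8 in the others. Their heat shock UMIs averaged 8.90 and 7.07, against 8.41 and 7.56. By class, macrophage-like cells held the largest such share of the DC and macrophage classes, at 14.6% in Ad-mIFNB and 11.8% in Ad-COMBO, against 5.46% in Ad-Null, and 2.64% in Ad-MEM40. In melanoma-like cells it was 18.9% in Ad-MEM40 and 21.9% in Ad-Null, and those cells were deep, with median UMIs of 59425 and 104422. What these cells share beyond the values given was not tested.

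Other genes of the pathways were read from longer lists. Genes named here are taken from the 3 highest and 3 lowest of each list among those at 20 CPM or more in 1 of the libraries, and not every called gene is named. Of 45 further immediate early genes 43 were measured. In Ad-COMBO 5 were higher and 1 lower than in Ad-Null (5.98% and 3.22% of all genes), with a median of 0.02. Their sum was 9713, 9087 and 10604 CPM in the Ad-MEM40, Ad-mIFNB and Ad-COMBO libraries, against 8327 CPM in Ad-Null, log2 ratios of 0.22, 0.13 and 0.35 beside 0.14, 0.23 and 0.46 for the sums of the 25 members. Tnfaip3, an inhibitor of NF-kB, had 309 CPM in Ad-COMBO against 175 CPM in Ad-Null (0.80). Ppp1r15a, which restores translation after stress, had 687 against 398 CPM (0.78), and Rgs1, a brake on G-protein signals, had 1820.4 against 1089 CPM (0.74). Phlda1 (-0.55), Cebpd (-0.52) and Zfp36l2 (-0.41) were the lowest of those named. The same list had 0 higher and 0 lower in Ad-MEM40 (0.776% and 0.34% of all genes). In Ad-mIFNB it had 0 higher and 2 lower (2.65% and 1.41% of all genes), Phlda1 at -0.79 and Dusp6 at -0.61.

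Upstream kinases and factors of the SRF, MAPK and CREB routes were mostly level. In Ad-COMBO 3 of 29 measured were higher and 0 lower (5.98% and 3.22% of all genes). They were Map3k8 (TPL2, which passes Toll-like receptor and CD40 signals to ERK) at 167 against 91.3 CPM, Mrtfa at 50.6 against 29.9 CPM and Map2k1 at 73.7 against 45.5 CPM. Map3k8 was also the 1 gene of the list called in Ad-mIFNB, at 145 against 91.3 CPM (2.65% of all genes higher and 1.41% lower). In Ad-MEM40 0 of 29 were called (0.776% of all genes higher and 0.34% lower).

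Of 38 other HSF1 targets and cochaperones, 3 were higher and 4 lower in Ad-COMBO (5.98% and 3.22% of all genes), with a median of -0.18. Hsf2 was at 38.1 against 18.2 CPM (0.89) and Dnajb2 at 0.68, while Cryab, a small heat shock protein, was at 8.41 against 23.9 CPM (-1.11) and Fkbp4 at -0.66. In Ad-MEM40 2 were higher (0.776% of all genes), Serpinh1 at 0.83 and Cryab at 0.74. Fibroblast marker sums were 137 CPM in Ad-MEM40 and 46.9 CPM in Ad-Null, and their part was not tested. Of 24 unfolded protein response genes, 3 were higher and 1 lower in Ad-COMBO (5.98% and 3.22% of all genes). Ddit3 (CHOP), the factor of prolonged endoplasmic reticulum stress, had 84.3, 104 and 116 CPM in the Ad-MEM40, Ad-mIFNB and Ad-COMBO libraries, against 64.5 CPM in Ad-Null. The folding enzymes Pdia6, Pdia4 and Hsp90b1 had Ad-COMBO ratios of -0.60, -0.50 and -0.48.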

How the data were processed

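UMI counts per gene and barcode were deposited as 4 filtered matrices. They were made with Cell Ranger 6.0.0 per the file headers, whereas the submitters' processing notes name Cell Ranger 3.0 and Seurat 4.0. The counts carry no normalization. Barcodes with at least 500 genes and at most 10% mitochondrial UMIs were kept, and counts were summed per library, or per class and library with at least 50 cells, and divided by the total to give UMIs per 1000000, without length scaling. A cell was gated to a marker list by a mean scaled score of at least 0.5 with a lead of 0.25 over the next list. Doublets (Scrublet) were kept, and left out in an alternative. With 1 library per group no test was run, and exact Poisson and Clopper-Pearson 95% intervals cover counting error only. Ratios use a pseudocount of 5 CPM and a minimum of 20 UMIs over both libraries. All members were named, and from every other list the 3 highest and 3 lowest ratios among genes at 20 CPM or more. Members and lists were chosen with earlier results of these data known. Python 3.11.15, scipy 1.17.1 and scanpy 1.11.5 were used, and the ratio step was checked on simulated counts. One result is not reported here.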

Additional observations from a re-analysis of the deposited data

Results flagged for a closer look

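In Ad-COMBO against Ad-Null, 3 immediate early genes lay past 1.5-fold in opposite directions in different classes. Dusp2 had a log2 ratio of 1.79 in mature DC-like and -0.62 in macrophage-like cells. Dusp5 had 1.45 in cDC1-like and -1.04 in macrophage-like cells, and Nr4a3 had 1.05 in cDC1-like and -1.22 in macrophage-like cells. The difference between classes was not tested, since each class has 1 library per group.

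The barcodes that the cell filter left out also carried the members, above the Ad-Null level. Immediate early sums there were 14032.5 CPM in Ad-MEM40, 13871 CPM in Ad-mIFNB and 16617 CPM in Ad-COMBO, against 12138 CPM in Ad-Null. Heat shock sums were 6642 CPM in Ad-MEM40, 7139 CPM in Ad-mIFNB and 7876 CPM in Ad-COMBO, against 6035 CPM in Ad-Null.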

How the results depend on the processing

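No paired analysis was possible because each group has 1 library. Values are medians of the members' log2 ratios or counts of members past the fold, and where they differ from the report the cause was not tested. For Ad-MEM40 against Ad-Null, the immediate early median was 0.060 thinned to 1000 UMIs, 0.0023 scaled by the median of ratios, 0.0036 on totals without mitochondrial and ribosomal protein genes, 0.062 with each cell weighted equally and 0.13 with gated classes weighted equally. Its heat shock median was 0.24 under stricter cell limits, 0.16 thinned, 0.17 under either other scaling and 0.15 with equal cells. Thinning and equal cells each gave 1 immediate early member, and equal classes 1 heat shock member. For Ad-mIFNB against Ad-Null, 2 immediate early members were past 1.5-fold with a pseudocount of 1 CPM, without doublets, scaled by the median of ratios or without shared barcodes (an alternative chosen after seeing the data), 3 when thinned or with equal cells, and 0 with equal classes. Without mitochondrial and ribosomal protein genes in the totals its immediate early median was 0.18 and its heat shock median turned to -0.0081, and the heat shock median was 0.066 thinned and 0.063 with equal cells. At 2-fold both Ad-mIFNB counts were 0. For Ad-COMBO against Ad-Null, the immediate early median was 0.39 without mitochondrial and ribosomal protein genes and 0.37 with equal cells, and 2 members passed 2-fold. Its heat shock median was 0.21 thinned, 0.27 scaled by the median of ratios, 0.18 without those genes and 0.20 with equal classes. For Ad-COMBO against Ad-MEM40, the immediate early median was 0.28 thinned, 0.40 scaled by the median of ratios, 0.32 without those genes, 0.26 with equal cells and 0.26 with equal classes, where 4 members passed. Its heat shock median was 0.12 over all barcodes, 0.11 scaled by the median of ratios, 0.023 without those genes and 0.029 with equal classes, and 1 member of each set passed 2-fold. For Ad-COMBO against Ad-mIFNB, the immediate early median was 0.27 over all barcodes and 0.17 with equal cells, where 2 immediate early and 3 heat shock members passed. There 2 heat shock members passed with a pseudocount of 1 CPM, over all barcodes, without doublets, scaled by the median of ratios and with equal classes, and at 2-fold 1 immediate early and 0 heat shock members passed. In Ad-COMBO against Ad-Null, Dusp2, Dusp5, Egr1, Fosb, Hspa1a and Hspa1b were past 1.5-fold in 10 of 10 settings, Zfp36 in 5 (lowest ratio 0.29), Dusp1 in 8 (0.41, with equal cells), and Egr3, Ier5, Klf2 and Nr4a3 in 9 each (0.48, 0.49, 0.58 and 0.47). The immediate early sum (25 genes) was above the heat shock sum (11 genes) in 29 of 31 classes and libraries. This held under each of the 4 alternatives tried on them. Their sums moved by up to 1.55-fold.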
